A study of Mus musculus with 2 samples.

Results

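The genes described here are 38 members of the NRF2, glutathione and redox system of the mouse, given as a fixed list by symbol, and all 38 were found among the 32285 genes of both count matrices. Their transcripts were counted in muscle stem cells (MuSCs) and in the other cells captured with them from the plantaris, a plantarflexor muscle of the lower hind limb. The experiment used single-cell RNA sequencing (scRNA-seq) with 3′ droplet chemistry, which tags RNA molecules by their cell of origin and by a unique molecular identifier (UMI), and it held 1 library from sham-operated animals and 1 library from animals after 5 days of mechanical overload (MOV). In MOV the synergist muscles are partly removed so that the plantaris bears more load, whereas sham surgery leaves tendon and muscle in place. Animals of both groups were 26 weeks old and carried the Pax7rtTA and TRE-H2B-GFP alleles, in which the Pax7 promoter drives the transactivator and doxycycline turns on a nuclear GFP in Pax7-expressing cells. Both groups had received doxycycline at 2.0 mg/ml in sweetened drinking water for 2 weeks. Suspensions were sorted for VCAM+ cells that lacked CD31, CD45 and SCA1, so the libraries hold cells chosen by surface protein and not by the GFP. The labels speak of a mouse per library and the methods of several mice per group, and the matrices do not assign cells to animals. Since each condition is 1 library, the spread among replicates is unknown and nothing was tested, and every interval below is a 95% interval that covers counting error only.

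NRF2, encoded by Nfe2l2, is a transcription factor that KEAP1 holds in the cytoplasm and delivers for degradation. When electrophiles or oxidants modify KEAP1, NRF2 enters the nucleus and binds antioxidant response elements of genes for glutathione synthesis, the thioredoxin system, NADPH supply, detoxification and iron handling. Glutathione and thioredoxin feed the peroxidases that remove hydrogen peroxide and lipid peroxides, and metallothioneins bind zinc and copper and are induced through metal response elements and by glucocorticoids and stress. In resting MuSCs, low metabolic activity and a high antioxidant capacity are held to protect a long-lived cell pool, and activation brings a rise in respiration and biosynthesis.

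The sham library held 1100 cells with a median of 4116.5 UMIs, and the MOV library 3854 cells with a median of 16836. Cells were grouped by UMIs of marker genes that include no member. Quiescent-marker MuSCs carried markers of quiescence such as Calcr and Chrdl2 (80 sham and 179 MOV cells), matrix MuSCs Islr or Gpc3 (2 and 184), and cycling MuSCs a panel of 12 cell-cycle genes (7 and 614). MuSCs past none of these cuts were called remaining MuSCs (26 and 515). Myog cells carried Myog, the regulator of terminal myogenic differentiation (1 and 190), fibre droplets adult myofibre transcripts (504 and 51), and Pdgfra cells the receptor of fibro-adipogenic progenitors (25 and 369). Groups under 20 cells entered no comparison. These groups are ranges cut from marker scores and not discrete types: 97 of 878 MOV cells considered lay within 20% of the quiescent cut and 44 of 1492 within 20% of the cycling cut. In the sham library 19 of 108 cells considered lay within 20% of the quiescent cut. Of the Pdgfra cells, 7 of 25 in sham and 85 of 369 in MOV lay exactly at the cut of 2 UMIs. The 8 MuSC markers, Pax7 among them, were all detected in quiescent-marker MuSCs and summed to 2280.2 CPM in sham and 1616 CPM in MOV cells. Cells entered this group by a cut on these same markers, and Calcr, Chrdl2 and Chodl also count as quiescent markers. These sums are therefore no independent check of identity. Despite the sort, 64 sham and 405 MOV cells carried markers of other cell types and were left out, as were cells with over 10% mitochondrial UMIs (362 and 794). A further 24 sham and 514 MOV cells passed no marker cut and were also left out. The 2 libraries shared 44 cell barcodes. Of the 51 MOV fibre droplets, 19 carried a barcode that was also in the sham library, where it was deeper in each case (median 640 UMIs in MOV and 26981 in sham), and values for MOV fibre droplets are given with and without them. No quiescent-marker or matrix MuSC had a shared barcode, and 3 of 394 Pdgfra cells and 4 of the 614 MOV cycling cells had one.

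Levels are counts per 1000000 UMIs (CPM), from the pooled UMIs of all cells in a group. A ratio is the log2 of the ratio of CPM with its interval in parentheses, and members were counted as higher or lower from 2-fold where both groups together held at least 20 UMIs. The same count over all genes is given as the background, so a member count near it describes the groups and not the members. Together the 38 members made up 3.85% of all UMIs in sham quiescent-marker MuSCs, 2.11% in MOV quiescent-marker MuSCs, 1.32% in matrix MuSCs, 1.26% in cycling MuSCs and 1.1% in Myog cells. Most of that range came from the metallothioneins Mt1 and Mt2 and the ferritin chains Fth1 and Ftl1. The other 34 members summed to 0.756% in sham and 0.619% in MOV quiescent-marker MuSCs, to 0.531% in Myog cells and to 0.624% in MOV Pdgfra cells, with the lowest share, 0.408%, in sham fibre droplets. Among the 7 groups of the MOV library, the highest level lay in Pdgfra cells for 12 members, in quiescent-marker MuSCs for 7, in fibre droplets for 7, in Myog cells for 6, in cycling MuSCs for 5 and in remaining MuSCs for 1. Among the 4 sham groups of at least 20 cells it lay in Pdgfra cells for 12, in quiescent-marker MuSCs for 11, in fibre droplets for 10 and in remaining MuSCs for 5. The group of the highest level was not counted over all genes, so these counts have no background beside them. For some members, such as Keap1, Cat, Prdx1 and Nqo1 in the MOV library, the intervals of the highest and the next group overlapped. Reads of near-identical copies cannot be told apart with certainty for Ftl1, whose pseudogene Ftl1-ps1 held 1043 UMIs beside 143432, and within the Gstm family.

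**Figure D1:**
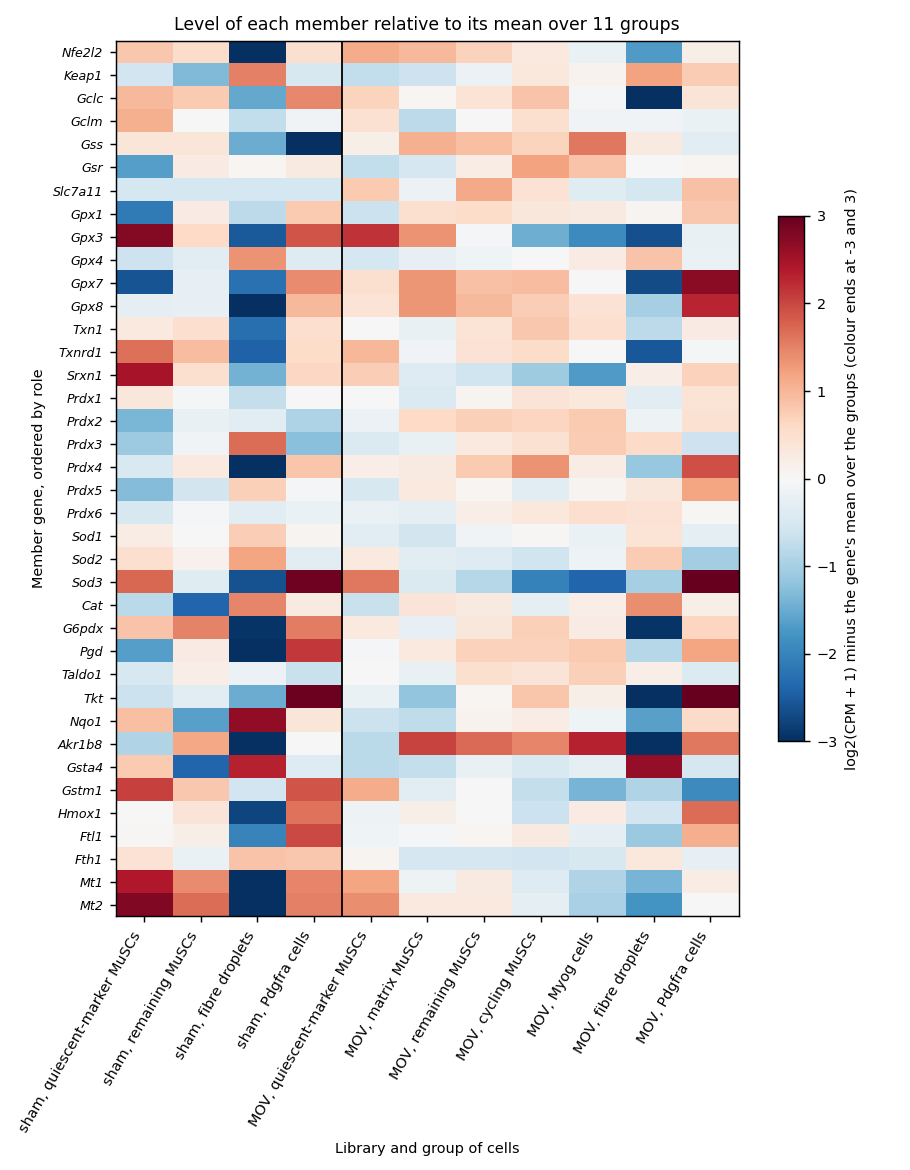
Levels of the 38 members (rows, ordered by role) in the 11 groups of at least 20 cells (columns, 4 sham and 7 MOV, parted by the black line). Colour is log2(CPM + 1) minus the gene's mean over the 11 groups, red above and blue below. The metallothioneins, Gpx3, Srxn1 and Gstm1 are reddest in quiescent-marker MuSCs, and the sham fibre droplets are blue for most thioredoxin and metal genes but red for Prdx3, Cat, Nqo1 and Keap1.

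The start regions of 4 members are shown because Mt1 and Mt2 carried wide differences in level that went together, and because Gclm and Prdx1 hold an antioxidant response element. The sequences are from RefSeq on GRCm38.p6, plus strand, and run from 250 bases before the transcription start that RefSeq gives to 30 bases after it. Capitals mark matches to a metal response element, searched on both strands as TGCACNC or TGCGCNC, in the 2 metallothionein sequences.
Mt1 (chr8:94178839-94179118, plus strand): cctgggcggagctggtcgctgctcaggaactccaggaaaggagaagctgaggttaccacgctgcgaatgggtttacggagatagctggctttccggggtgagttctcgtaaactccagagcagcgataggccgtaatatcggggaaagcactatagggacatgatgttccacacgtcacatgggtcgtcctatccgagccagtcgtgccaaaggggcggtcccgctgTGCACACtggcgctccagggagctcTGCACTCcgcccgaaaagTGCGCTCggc
Mt2 (chr8:94172368-94172647, plus strand): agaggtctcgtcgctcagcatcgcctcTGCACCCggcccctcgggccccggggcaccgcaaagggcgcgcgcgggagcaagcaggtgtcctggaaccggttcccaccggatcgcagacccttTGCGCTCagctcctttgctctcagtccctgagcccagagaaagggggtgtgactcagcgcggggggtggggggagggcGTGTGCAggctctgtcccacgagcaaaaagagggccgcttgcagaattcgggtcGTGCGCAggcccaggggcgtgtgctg
In Gclm and Prdx1 the capitals mark the antioxidant response element, searched on both strands as TGACNNNGC.
Gclm (chr3:122245307-122245586, plus strand): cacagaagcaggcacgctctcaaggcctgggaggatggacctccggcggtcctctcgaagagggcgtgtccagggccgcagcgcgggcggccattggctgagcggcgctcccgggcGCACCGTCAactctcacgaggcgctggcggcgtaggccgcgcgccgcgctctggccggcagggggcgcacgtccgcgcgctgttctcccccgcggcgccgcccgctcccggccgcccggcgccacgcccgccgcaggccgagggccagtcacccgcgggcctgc
Prdx1 (chr4:116685349-116685628, plus strand): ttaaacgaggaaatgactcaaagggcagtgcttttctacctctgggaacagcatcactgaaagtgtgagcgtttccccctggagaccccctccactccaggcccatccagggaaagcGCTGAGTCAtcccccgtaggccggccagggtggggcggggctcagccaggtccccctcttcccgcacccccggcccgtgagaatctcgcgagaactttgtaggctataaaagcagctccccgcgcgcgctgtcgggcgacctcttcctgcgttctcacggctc
Of the 38 members, 32 had a start region of 300 bases (250 before to 50 after the start) in the table used. These 32 had 40 windows in all, since some have several starts. An antioxidant response element stood in 9 of the 40, those of Nfe2l2, Gclm, Txnrd1, Srxn1, Prdx1, Sod1, G6pdx, Pgd and Mt2, beside 12.4% of all 32851 such windows. The Mt1 gene lies at chr8:94179082-94180327 and Mt2 beside it at chr8:94172664-94173568, so the RefSeq start of Mt2 lies upstream of the annotated gene. A metal response element stood in 10 of the 40 windows, beside 25.7% of all windows, and 3 or more stood in 1.97% of all, with 3 matches in the Mt1 window, 4 in the Mt2 window and 3 in the Gclm window. The motif was matched by its letters only, and binding was not measured.

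Within the MOV library the sensor pair differed little between quiescent-marker and matrix MuSCs and in opposite directions between quiescent-marker and cycling cells. Nfe2l2 stood at 414 CPM (386 to 443) in quiescent-marker, 373 in matrix, 309 in remaining and 232 in cycling MuSCs and at 165 (156 to 173) in Myog cells. Its log2 ratio of cycling to quiescent-marker MuSCs was -0.83 (-0.94 to -0.73) and that of Myog to cycling cells -0.50 (-0.58 to -0.41), both less than 2-fold. In sham quiescent-marker MuSCs it was 333 CPM (289 to 381), below the MOV value. Keap1, the adaptor that targets NRF2 for degradation, was low throughout, at 9.87 CPM in quiescent-marker, 10.7 in matrix, 21.3 in cycling and 18.4 CPM in Myog cells. It rested on 20 UMIs in quiescent-marker MuSCs and its cycling to quiescent-marker ratio was 1.11 (0.47 to 1.83), which was below 2-fold when each cell was thinned to 2000 UMIs and when taken relative to the median of all genes.

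Of the 38 members, 6 were at least 2-fold higher in cycling than in quiescent-marker MuSCs and 6 at least 2-fold lower, each 15.8% of the members, beside 19.9% higher and 11.4% lower of the 12292 genes compared. The median log2 ratio was 0.40 over the members and 0.13 over all genes, and neither share of members lay far from its background. The 6 higher members were Akr1b8, Gsr, Nqo1, Prdx4, Tkt and Keap1, and the 6 lower were Sod3, Gpx3, Gstm1, Srxn1, Mt2 and Mt1. The 6 lower members stayed past 2-fold under each of the 16 processing alternatives, whereas of the higher ones only Akr1b8 and Gsr did.

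In glutathione synthesis, cycling MuSCs differed from quiescent-marker MuSCs in the recycling enzyme more than in the synthetic ones. Gsr, which reduces oxidised glutathione, was 12.8 CPM in quiescent-marker, 15.3 in matrix and 52.2 CPM in cycling MuSCs, a ratio of 2.02 (1.47 to 2.64) for cycling cells. Gclc and Gclm are the catalytic and modifier subunits of the rate-limiting glutamate-cysteine ligase. Gclc stood at 24.2 CPM and 27.7 CPM with a ratio of 0.20 (-0.22 to 0.65), and Gclm at 66.6 and 68.5 CPM with a ratio of 0.04 (-0.21 to 0.30). Both intervals span no change and both exclude a 2-fold difference. Gss, which joins glycine to complete glutathione, gave 0.55 (-0.03 to 1.19). Slc7a11, the cystine importer, was barely detected, with 3 UMIs in quiescent-marker and 26 UMIs in cycling MuSCs, and none in any sham group, where 3 counts correspond to 4.77 CPM in quiescent-marker MuSCs.

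Among the glutathione peroxidases, Gpx3 went against the other 4. Gpx3, a secreted enzyme, stood at 1661 CPM in quiescent-marker, 935 in matrix, 358 in remaining and 133 CPM in cycling MuSCs and at 96.5 CPM in Myog cells. It was 12.5-fold lower in cycling than in quiescent-marker MuSCs, with a log2 ratio of -3.64 (-3.71 to -3.57). Between single cells the middle range was 873 to 2582 CPM in quiescent-marker and 23.3 to 238 CPM in cycling MuSCs, and these ranges did not overlap. With each cell thinned to 2000 UMIs, a Gpx3 UMI was present in 88.7% of quiescent-marker and 21.2% of cycling MuSCs, beside 98.3% and 83.2% unthinned at median depths of 11070 and 37341 UMIs, and beside 12.3% of thinned sham fibre droplets. Gpx1, the abundant cytosolic form, was 108 CPM and 214 CPM, with a ratio of 0.99 (0.80 to 1.20) that fell just short of 2-fold. Gpx4, which reduces lipid peroxides, gave 0.54 (0.42 to 0.65), and Gpx7 and Gpx8 of the endoplasmic reticulum 0.46 (0.17 to 0.77) and 0.32 (0.10 to 0.55).

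The thioredoxin system was not of a piece. Txn1, thioredoxin itself, was higher in cycling MuSCs at 1044 CPM against 601 CPM, a ratio of 0.80 (0.71 to 0.88). Txnrd1, which recharges it, was lower at 199 against 267 CPM, and Srxn1, which repairs overoxidised peroxiredoxins, was lower at 25.3 against 90.8 CPM, a ratio of -1.84 (-2.08 to -1.60). All 6 peroxiredoxins had a log2 ratio above 0, from 0.16 for Prdx5 to 1.15 for Prdx4, the form of the secretory pathway, which stood at 103 CPM in quiescent-marker and 229 CPM in cycling MuSCs. That of Prdx5 has an interval that reaches 0 (-0.01 to 0.33). The median of all genes was itself above 0, at 0.13, and Prdx5 lay near it. The share of all genes above 0 was not counted.

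Of the dismutases, the extracellular Sod3 was 58.2 CPM in quiescent-marker, 13.7 in matrix and 3.86 CPM in cycling MuSCs, 15.1-fold lower in the last (-3.91, interval -4.31 to -3.52). The mitochondrial Sod2 stood at 260 and 141 CPM, a ratio of -0.88 (-1.02 to -0.75), and the cytosolic Sod1 at 69.6 and 88.8 CPM, a ratio of 0.35 (0.11 to 0.61). Cat, catalase of the peroxisome, rested on 18 UMIs in quiescent-marker MuSCs. All 4 pentose phosphate members had a ratio above 0, beside a median of 0.13 over all genes. The NADPH-producing G6pdx and Pgd gave 0.45 (-0.25 to 1.24) and 0.79 (0.29 to 1.34), and of the enzymes of the non-oxidative branch Taldo1 gave 0.39 (0.19 to 0.60) and Tkt 1.14 (0.38 to 2.03), the last from 14 UMIs in quiescent-marker MuSCs.

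In detoxification, Akr1b8 and Gstm1 differed in opposite directions. Akr1b8, an aldo-keto reductase for reactive aldehydes, was 18.7 CPM (13.3 to 25.7) in quiescent-marker, 139 in matrix, 112 in remaining and 94.3 CPM in cycling MuSCs and 169 CPM (160 to 177) in Myog cells. Quiescent-marker MuSCs lay lowest among the MOV groups of the MuSC lineage, and their interval overlapped none of the others. Gstm1, a glutathione S-transferase, was 348 CPM in quiescent-marker, 127 in matrix and 96.6 CPM in cycling MuSCs, a cycling ratio of -1.85 (-1.97 to -1.73). Gsta4, a transferase for lipid aldehydes, gave 0.51 (-0.90 to 2.42). The quinone reductase Nqo1, a classical NRF2 target, held 2 UMIs in quiescent-marker and 72 in cycling MuSCs, so its ratio of 1.40 (-0.51 to 4.47) includes no change.

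Among heme, iron and metal genes the metallothioneins showed the clearest gradient. Mt1 stood at 7001 CPM in quiescent-marker, 3726 in remaining, 2806 in matrix and 2394 CPM in cycling MuSCs and at 1671 CPM in Myog cells, and Mt2 at 3201, 1496, 1497, 1015 and 621 CPM in the same order of groups. Quiescent-marker MuSCs were highest and Myog cells lowest of the 5 groups for both genes, and Mt2 did not differ between remaining and matrix MuSCs beyond counting error. The cycling to quiescent-marker ratios were -1.55 (-1.57 to -1.52) and -1.66 (-1.70 to -1.62). Ftl1, the ferritin light chain, was 925 and 1215 CPM and Fth1, the heavy chain, 3831 and 2428 CPM, ratios of 0.39 (0.33 to 0.46) and -0.66 (-0.69 to -0.62). Hmox1, which degrades heme, gave -0.51 (-0.89 to -0.11).

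**Figure D2:**
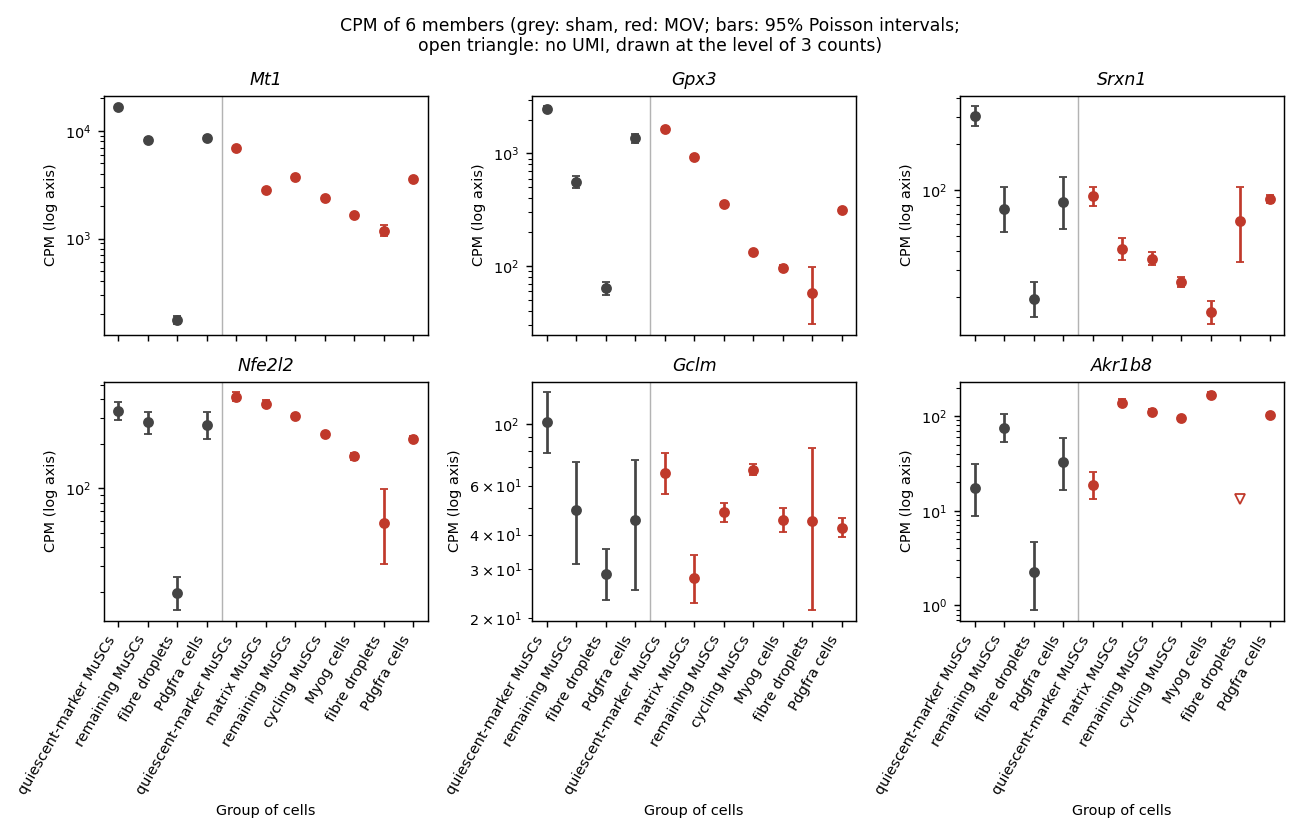
Levels of Mt1, Gpx3, Srxn1, Nfe2l2, Gclm and Akr1b8 (CPM, log axis) in each group of at least 20 cells, sham in grey and MOV in red, with 95% Poisson intervals. The open triangle is a group with no UMI, drawn at 3 counts. In the MOV groups Gpx3 spans 1661 CPM in quiescent-marker MuSCs to 58.1 CPM in fibre droplets, Akr1b8 is lowest in quiescent-marker MuSCs among the MuSC lineage, and Gclm lies between 27.9 and 68.5 CPM.

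Heat shock and immediate-early transcripts, taken as possible signs of tissue handling, were lower in cycling than in quiescent-marker MuSCs. The 4 heat shock genes Hspa1a, Hspa1b, Dnajb1 and Hspb1, all detected, summed to 7592 CPM in quiescent-marker, 4942 in matrix and 2994 CPM in cycling MuSCs, and the 6 immediate-early genes Fos, Jun, Junb, Egr1, Atf3 and Fosb, all detected, to 2462, 2503 and 1415 CPM. When the MOV quiescent-marker MuSCs were divided at the median of their heat shock share, Mt1 was 7739 CPM in the upper 89 cells and 6367 CPM in the lower 90, whose heat shock genes summed to 4397 CPM. Gpx3 was 2064 and 1315 CPM, Gstm1 341 and 355 CPM and Srxn1 87.6 and 93.5 CPM in the same parts. The lower part still held more heat shock transcript than cycling MuSCs, and the part of handling in the differences was not tested. Of the 63 further genes of the redox pathway taken as a wider list, 59 were compared. In cycling MuSCs 10 were higher and 10 lower, each 16.9%, beside 19.9% higher and 11.4% lower over all genes. The largest differences were in Tigar (2.55), a brake on glycolysis, Chac2 (2.32), which degrades glutathione, and Nnt (2.16), the mitochondrial transhydrogenase, and on the lower side in the iron exporter Slc40a1 (-2.90), the zinc and iron importer Slc39a14 (-2.41) and Maff (-2.02), a small MAF protein that partners NRF2. Tigar and Nnt each rested on 1 UMI in quiescent-marker MuSCs.

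Matrix MuSCs held less Sod3, Gstm1, Gclm and metallothionein transcript than quiescent-marker MuSCs, and more Akr1b8. Of 35 members compared, 3 were at least 2-fold higher in matrix than in quiescent-marker MuSCs (8.57%, beside 11.2% of 9513 genes) and 8 lower (22.9%, beside 4.97%). The members' median log2 ratio was -0.15 and that of all genes 0.12, and both comparisons use the same quiescent-marker cells. The higher members were Akr1b8 with 2.89 (2.41 to 3.40), Cat with 1.15 (0.39 to 1.98) and Gpx1 with 1.14 (0.92 to 1.36). Of these only Akr1b8 stayed past 2-fold under each alternative. Cat did not with equal cell weights or with doubled or halved marker cuts (lowest 0.64), and Gpx1 did not when cells were thinned (0.69). The 6 with the lowest ratios were Sod3 (-2.09), Gstm1 (-1.46), Mt1 (-1.32), Gclm (-1.26), Tkt (-1.20) and Srxn1 (-1.13), and Mt2 and Txnrd1 were also lower. Of the 8 lower members, Txnrd1, Srxn1, Sod3, Gstm1 and Mt1 stayed past 2-fold under each alternative, whereas Gclm, Tkt and Mt2 did not with halved marker cuts.

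The modifier subunit Gclm set matrix MuSCs apart, at 27.9 CPM (22.7 to 33.8) against 66.6 in quiescent-marker and 68.5 CPM in cycling MuSCs, with a matrix to quiescent-marker ratio of -1.26 (-1.64 to -0.88). Its partner Gclc gave -0.63 (-1.21 to -0.05), Nfe2l2 -0.15 (-0.28 to -0.03) and Keap1 0.11 (-0.70 to 0.97). Gpx3, which was 12.5-fold lower in cycling MuSCs, was 1.78-fold lower in matrix MuSCs. Among the wider redox genes, 3 of 54 were higher (5.56%, beside 11.2% of all genes) and 5 lower (9.26%, beside 4.97%). The higher ones were Txnip (1.82), which binds and inhibits thioredoxin, Idh1 (1.27), a source of NADPH, and Hmox2 (1.02). The lower ones were led by Maff (-1.86), Slc39a14 (-1.52) and Mafk (-1.40).

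Myog cells differed from cycling MuSCs in few members. None of 38 was at least 2-fold higher (beside 7.73% of 12689 genes) and 2 were lower (5.26%, beside 10.4%). The members' median log2 ratio was -0.31 and that of all genes -0.08. Slc7a11 had a log2 ratio of -3.02 from 1 against 26 UMIs (-8.38 to -0.42), and Prdx4 was 104 against 229 CPM, a ratio of -1.14 (-1.24 to -1.04). Below 2-fold, both subunits of glutamate-cysteine ligase lay lower in Myog cells, Gclc at 14.2 against 27.7 CPM (-0.97, interval -1.25 to -0.69) and Gclm at 45.3 against 68.5 CPM (-0.60, interval -0.76 to -0.44). The synthetase Gss lay higher at 34.4 against 18.0 CPM (0.93, interval 0.72 to 1.14), as did Hmox1 with 0.93 (0.73 to 1.12) and Akr1b8 with 0.84 (0.75 to 0.93). All 3 genes of the thioredoxin system had ratios below 0, from -0.66 to -0.31, whereas 4 of the 6 peroxiredoxins had ratios above 0. Here too the share of all genes above 0 was not counted.

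Of the 190 Myog cells, 34 also passed the cycling cut, and their values lay between those of the cycling MuSCs and of the other Myog cells for Prdx4, Nfe2l2 and Mt1. Prdx4 was 184 CPM in these 34 cells, 86.4 CPM in the 136 below the cycling cut with embryonic myosin Myh3 under 1000 CPM, and 52.5 CPM in the 20 with Myh3 at or over 1000 CPM. Nfe2l2 was 198, 164 and 111 CPM, and Mt1 1998, 1777 and 607 CPM in the same order. Fth1 went the other way, at 2091, 2604 and 3223 CPM, as did Gpx4 at 489.8, 572 and 772 CPM. Gpx3 was 26.2, 111 and 147 CPM. For Gpx3 and Fth1 the 34 cells did not lie in between but below both the cycling MuSCs and the other Myog cells. How many of the members lay in between was not counted. Of the wider list, 1 of 59 was higher (1.69%, beside 7.73% of all genes) and 6 were lower (10.2%, beside 10.4%). The higher one was Txnip (1.44, interval 1.33 to 1.54). At the low end were Abcc4 (-2.72), an exporter of organic anions, Sesn2 (-1.17), a stress-induced regulator of mTORC1, and Blvra (-1.13), biliverdin reductase.

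**Figure D3:**
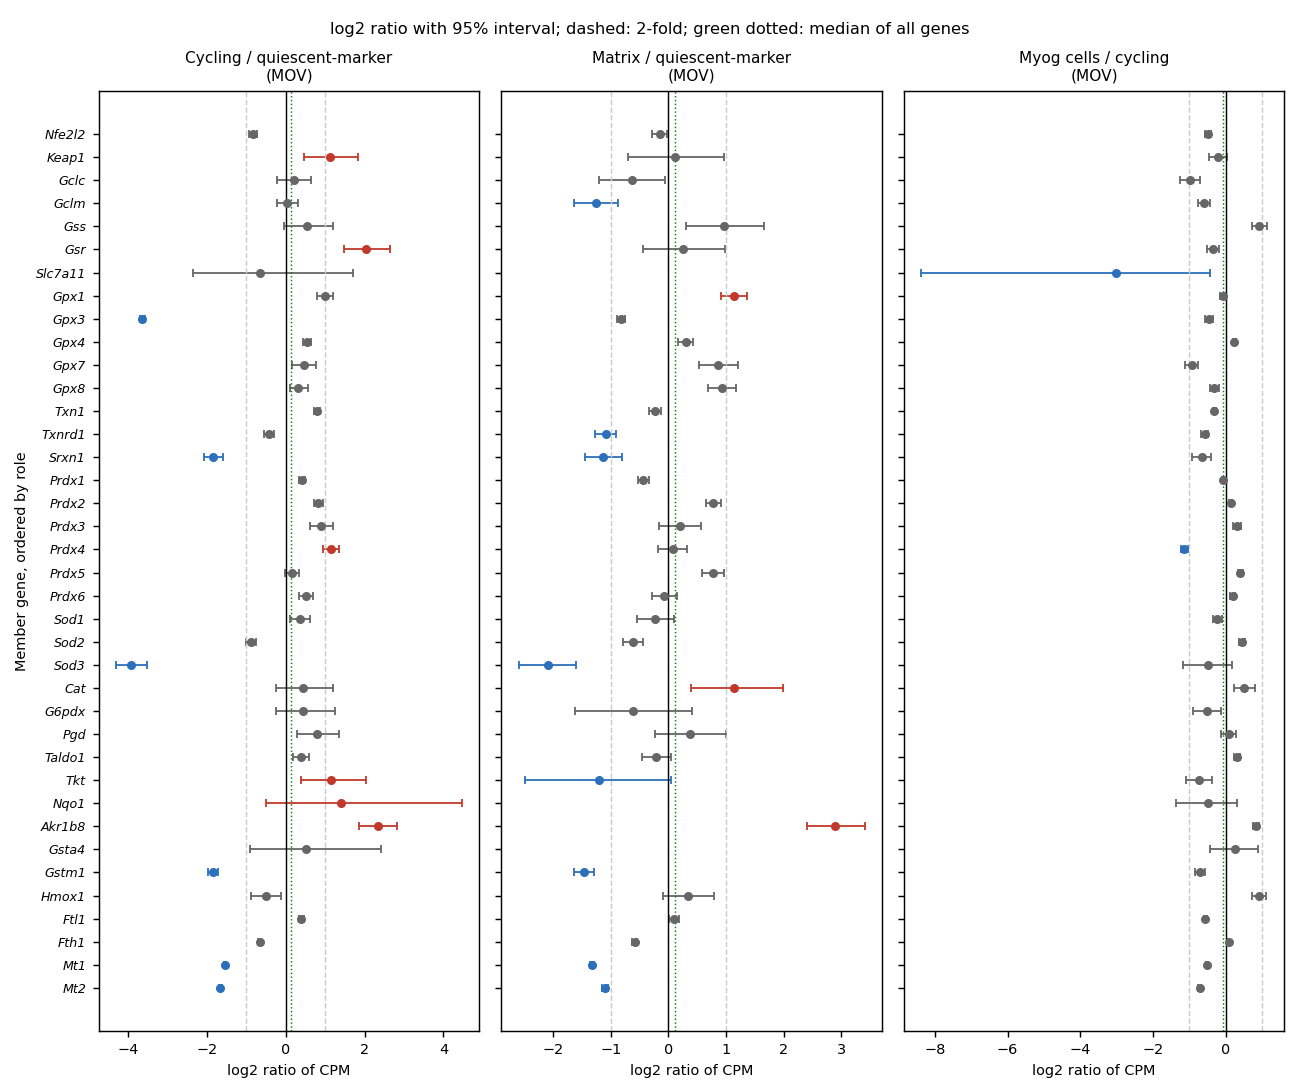
log2 ratio of CPM for each member compared (points with 95% counting intervals; red at least 2-fold higher, blue at least 2-fold lower, grey between) for cycling against quiescent-marker MuSCs, matrix against quiescent-marker MuSCs and Myog against cycling cells of the MOV library. The green dotted line is the median of all genes compared. Sod3 and Gpx3 lie farthest left in the left panel, Akr1b8 farthest right in the left and middle panels, and few points leave the 2-fold lines in the right panel.

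Pdgfra cells of the MOV library held more Sod3, Tkt and Hmox1 transcript than MuSCs and less Gstm1. Their fibro-adipogenic check genes Dcn, Lum, Pi16, Clec3b and Mfap5 summed to 7855 CPM, and the 8 MuSC markers to 15.9 CPM. Pdgfra cells with at least 3 UMIs and 300 CPM of MuSC markers had been left out as mixed, which limited the latter sum in advance. Of 38 members, 7 were at least 2-fold higher than in all MOV MuSCs (18.4%, beside 19% of 13867 genes) and 2 lower (5.26%, beside 15.7%). The median was 0.07 over the members and -0.10 over all genes, so the higher share was near the background and the lower share under it.

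Sod3, the extracellular dismutase, had the largest ratio. It was 209 CPM in Pdgfra cells and 8.69 CPM in MuSCs, 24.1-fold higher (4.59, interval 4.44 to 4.74). MOV quiescent-marker MuSCs alone held 58.2 CPM, the next highest level among the 7 groups. With cells thinned to 2000 UMIs, Sod3 was detected in 32.8% of Pdgfra cells and 10.7% of quiescent-marker MuSCs. In Myog cells, which are not part of the MuSC pool and held the lowest level, the thinned share was 0.552%. Without thinning, Sod3 reached 91.3%, 36.9% and 11.6% of the cells in the same order of groups. These groups differed in depth, with medians of 37876, 11070 and 41063 UMIs. Gpx7 was 227 against 65.4 CPM (1.80, interval 1.72 to 1.87) and Gpx8 315 against 115 CPM (1.46, interval 1.40 to 1.52), and Prdx4, also of the secretory pathway, gave 0.83 (0.78 to 0.88). Tkt was 75.3 against 12.1 CPM, 6.25-fold higher, while its partner in the non-oxidative branch, Taldo1, gave -0.77 (-0.87 to -0.68). By ratio, Tkt and Hmox1 followed Sod3. Hmox1 stood at 111 against 26.5 CPM (2.07, interval 1.96 to 2.17) and Srxn1 at 87.7 against 32.3 CPM (1.44, interval 1.33 to 1.55), which was 0.92 with each cell weighted equally. MOV quiescent-marker MuSCs alone held 90.8 CPM of Srxn1, no less than the Pdgfra cells. Prdx5 was also more than 2-fold higher (1.33).

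The 2 lower members both belong to glutathione use and synthesis, Gstm1 at 41.8 against 127 CPM (-1.61, interval -1.73 to -1.49) and Gss at 8.42 against 19.1 CPM (-1.18, interval -1.47 to -0.91). Gclc (-0.31, interval -0.50 to -0.12), Gclm (-0.50, interval -0.62 to -0.37) and Nfe2l2 (-0.33, interval -0.39 to -0.28) lay below MuSCs by less than 2-fold and Keap1 (0.69, interval 0.52 to 0.86) above them. Pdgfra cells in the upper part by immediate-early share (184 cells) held 153 CPM of Hmox1 and the lower part (185 cells) 71.8 CPM, both above the MuSC value. Of the wider list, 11 of 62 were higher (17.7%, beside 19% of all genes) and 6 lower (9.68%, beside 15.7%). The higher ones were led by the hydrogen peroxide-producing oxidase Nox4 (6.97), the gamma-glutamyl transferase Ggt5 (6.54) and the microsomal transferase Mgst1 (2.79). The lower ones were led by Chac1 (-2.57), Txnrd3 (-1.61) and Osgin1 (-1.44).

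Fibre droplets are barcodes in which adult muscle transcripts make up a large share of the RNA, and they were the largest group of the sham library. In them the 3 thioredoxin genes and both metallothioneins were lower than in sham quiescent-marker MuSCs, while Prdx3, Prdx5 and Cat were higher. Of the ferritin chains, Ftl1 was lower (-2.04, interval -2.20 to -1.89) and Fth1 had a ratio above 0 (0.42, interval 0.36 to 0.47). Of 32 members compared, 10 were higher (31.2%, beside 29.7% of 7331 genes) and 16 lower (50%, beside 42.6%), with a median of -0.45 beside -0.47 over all genes, so the shares lay near the background. A few muscle genes take a large share of UMIs in these droplets, and with TMM or DESeq2 factors, which moved the median of all genes to 0.56 and 0.54, 16 members were higher.

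Mt2 was 40.7 CPM in sham fibre droplets and 8476 CPM in sham quiescent-marker MuSCs, a ratio of -7.70 (-7.97 to -7.45), and Mt1 176 and 16529.6 CPM (-6.55, interval -6.68 to -6.43). With cells thinned to 2000 UMIs, an Mt1 UMI was present in 15.4% of sham fibre droplets and 95% of sham quiescent-marker MuSCs, beside 24.6% and 97.5% unthinned at median depths of 3744 and 7533 UMIs, and 146 droplets under 2000 UMIs were left out of the thinned shares. Gpx8 (-7.36, from 1 UMI in the droplets), Gpx3 (-5.29), Sod3 (-4.83) and Prdx4 (-4.21), which all enter the secretory pathway, followed on the lower side. Nfe2l2 was 19.9 CPM in the droplets and 333 CPM in the MuSCs (-4.07, interval -4.50 to -3.65), while Keap1 was 50.3 against 11.1 CPM (2.17, interval 1.10 to 3.51), so the 2 genes differed in opposite directions. Gclc gave -2.75 (-3.86 to -1.68) and Gclm -1.82 (-2.30 to -1.34), the latter under 2-fold with TMM or DESeq2 factors.

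On the higher side, the mitochondrial Prdx3 was 214 against 30.2 CPM (2.82, interval 2.17 to 3.56), Cat 42.9 against 7.96 CPM (2.43, interval 1.17 to 4.08) and Prdx5, which is found in mitochondria and peroxisomes, 344 against 84.3 CPM (2.03, interval 1.63 to 2.46). Gpx4 was 1256 against 318 CPM (1.98, interval 1.78 to 2.19). Nqo1 rested on 58 UMIs in the droplets and 3 in the MuSCs (1.96, interval 0.34 to 4.28). Of the superoxide dismutases, Sod1 and Sod2 differed by less than 2-fold from the MuSCs, at 0.53 (0.15 to 0.93) and 0.68 (0.46 to 0.91), and both were past 2-fold with TMM or DESeq2 factors, as was Fth1. Of the wider list, 20 of 49 were higher (40.8%, beside 29.7% of all genes) and 17 lower (34.7%, beside 42.6%). The higher ones were led by Txnip (6.05), the microsomal transferase Mgst3 (5.24) and the methionine sulfoxide reductase Msrb1 (5.15). The lower ones were led by Slc39a14 (-9.05), Maff (-7.92) and the oxidase subunit Cyba (-6.12).

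**Figure D4:**
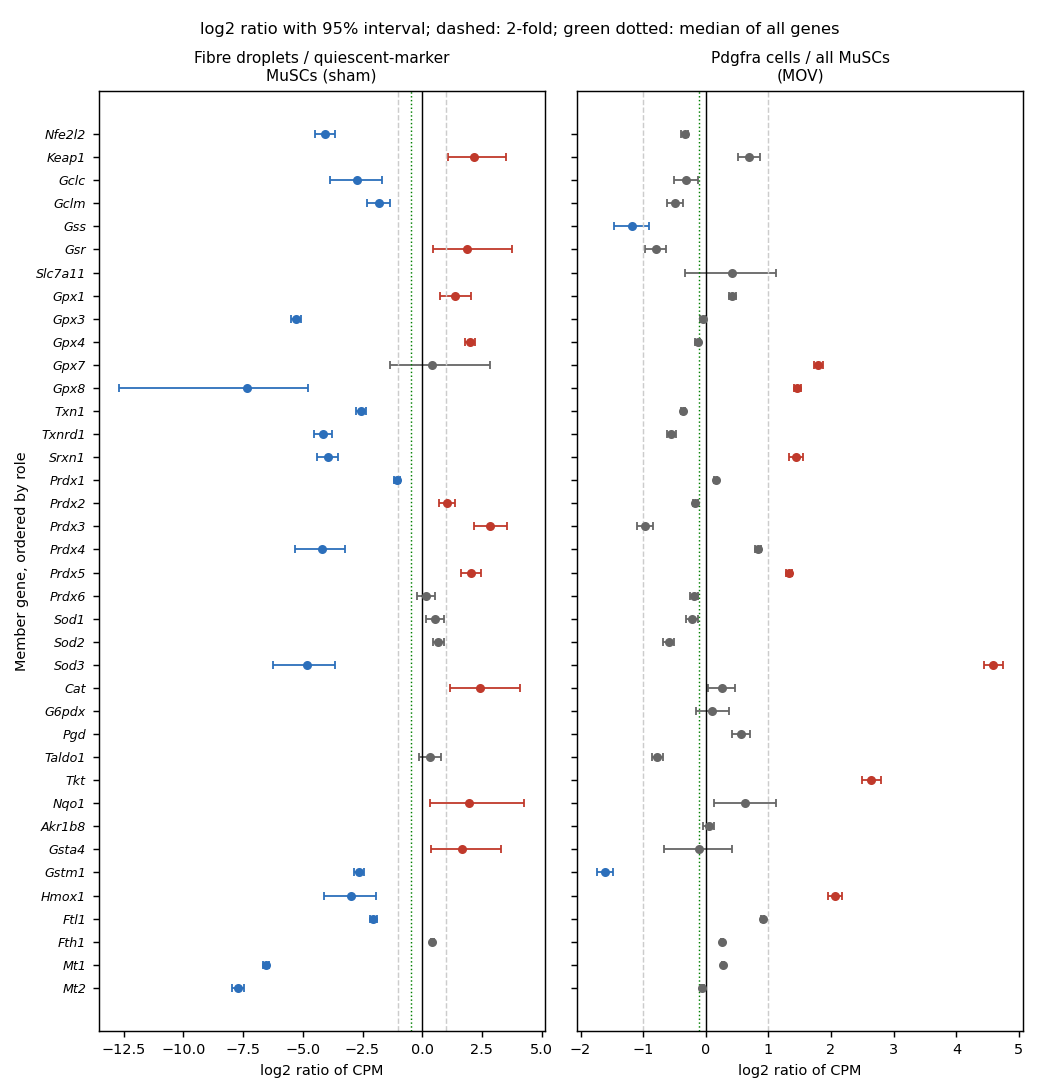
log2 ratio of CPM for each member compared, with 95% counting intervals, for sham fibre droplets against sham quiescent-marker MuSCs and for MOV Pdgfra cells against all MOV MuSCs; colours and lines as in the plot of MuSC states. In the left panel Mt1, Mt2, Gpx3 and Gpx8 lie more than 5 log2 units to the left and Prdx3 farthest to the right, and in the right panel Sod3 and Tkt lie farthest to the right.

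Between the libraries, quiescent-marker MuSCs held less metallothionein and sulfiredoxin transcript after MOV. Mt1 was 16529.6 CPM (16213 to 16851) in the 80 sham cells and 7001 CPM (6886 to 7117) in the 179 MOV cells, 2.36-fold lower (-1.24, interval -1.28 to -1.20). Mt2 was 8476 and 3201 CPM (-1.41, interval -1.46 to -1.35), and Srxn1 304 and 90.8 CPM, 3.35-fold lower (-1.74, interval -2.04 to -1.44). The single cells of the libraries overlapped in Mt1, with a middle range of 5753 to 24114 CPM in sham and 3139 to 10307 CPM in MOV cells. Of 34 members compared, 3 were at least 2-fold lower (8.82%, beside 5.99% of 7368 genes) and 5 higher (14.7%, beside 15.9%), with a median of -0.14 beside 0.17 over all genes. The 3 lower members stayed past 2-fold under each alternative, as did Gpx1 among the higher ones, and Gpx7 and Pgd wherever they held enough UMIs.

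The higher members in MOV quiescent-marker MuSCs were Gpx7, Pgd, Gpx1, Prdx2 and Gsr. Gpx7 rested on 3 UMIs in sham and 96 in MOV cells (3.31, interval 1.72 to 5.61), Pgd on 3 and 33 (1.77, interval 0.10 to 4.12) and Gsr on 4 and 26 (1.01, interval -0.52 to 2.99), so the last includes no change. Gpx1 was 38.2 and 108 CPM (1.49, interval 0.88 to 2.17) and the cytosolic peroxiredoxin Prdx2 132 and 300.4 CPM (1.19, interval 0.85 to 1.53). Nfe2l2 gave 0.32 (0.10 to 0.54), Keap1 -0.17 (-1.47 to 1.31), Gclc -0.32 (-1.11 to 0.52) and Gclm -0.61 (-1.05 to -0.16), all under 2-fold, and the intervals of Keap1 and Gclc span no change. Gpx3 (-0.58, interval -0.67 to -0.50), Gstm1 (-0.92, interval -1.10 to -0.74) and Txnrd1 (-0.67, interval -0.88 to -0.45) lay below sham by less than 2-fold. Among the wider redox genes, 12 of 50 were higher (24%, beside 15.9% of all genes) and 5 lower (10%, beside 5.99%). The higher ones were led by Txnip (4.57, from 2 UMIs in sham), Sesn1 (2.83) and Ugdh (1.90). The lower ones were led by Ephx1 (-1.80), Osgin1 (-1.48) and Maff (-1.22).

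The 2 panels taken as possible signs of handling differed between the libraries in opposite directions. In quiescent-marker MuSCs the immediate-early genes summed to 3994 CPM in sham and 2462 CPM in MOV, the heat shock genes to 6102 and 7592 CPM, and mitochondrially encoded genes to 5.63% and 3.06% of UMIs. In the lower part by heat shock share (40 sham cells, 2182 CPM of heat shock genes) Mt1 was 13565 CPM, and in the upper part of the MOV cells 7739 CPM, with Srxn1 at 255 and 87.6 CPM. In the parts by immediate-early share, Mt1 was 16134 CPM in the upper and 16856 CPM in the lower sham cells and 7427 and 6616 CPM in the MOV cells. Of other cell types' markers, the fibro-adipogenic check genes summed to 111 CPM in sham and 222 CPM in MOV, the myeloid markers to 6.36 and 24.2 CPM, Pdgfra to 0 and 1.97 CPM and the myofibre panel to 551 and 227 CPM. Cells past the cuts on these markers had been left out of the group, which capped these sums in advance. The part of these panels in the differences between the libraries was not tested.

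Pdgfra cells also held less metallothionein after MOV. In the 25 sham and 369 MOV cells, Mt1 was 8600.4 and 3604 CPM (-1.25, interval -1.31 to -1.20) and Mt2 3479 and 1231 CPM (-1.50, interval -1.58 to -1.41). Gstm1 showed the widest gap, 590.3 against 41.8 CPM, 14.1-fold lower (-3.82, interval -4.06 to -3.58), followed by Gpx3 at 1369 and 317 CPM (-2.11, interval -2.25 to -1.97). Gclc was 42.0 and 19.8 CPM from 14 sham UMIs (-1.08, interval -1.85 to -0.19) and Fth1 6257 and 3013 CPM (-1.05, interval -1.12 to -0.99). In all, 6 of 38 members were lower (15.8%, beside 15.8% of 11736 genes) and 7 higher (18.4%, beside 12.4%), with a median of -0.09 beside -0.19 over all genes.

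The higher members included 3 of the 6 peroxiredoxins and both peroxidases of the endoplasmic reticulum. Prdx2 gave 1.39 (1.02 to 1.78), Prdx5 1.22 (0.88 to 1.59), Prdx4 1.12 (0.73 to 1.54), Gpx7 1.29 (0.78 to 1.85) and Gpx8 1.33 (0.89 to 1.80), and Akr1b8 was 33.0 and 102 CPM (1.63, interval 0.79 to 2.64). Keap1 rested on 4 sham UMIs (1.30, interval -0.07 to 3.18) and went below 0 when cells were thinned and below 2-fold without shared barcodes. Nfe2l2 (-0.30, interval -0.61 to 0.02) and Gclm (-0.09, interval -0.82 to 0.76) have intervals that span no change. The sham Pdgfra cells carried more of the fibro-adipogenic check genes (25238 against 7855 CPM) and of the immediate-early genes (11918 against 4199 CPM) and fewer cell-cycle transcripts (89.9 against 1305 CPM), and the part of these in the differences was not tested. Gclc and Fth1 no longer reached 2-fold with TMM or DESeq2 factors, with a mitochondrial limit of 20% or none, relative to the median of all genes, or without the 126 MOV cells past the cycling cut, and Prdx4 did not without those cells or with a limit of 5%. Akr1b8 did not when cells were thinned. Of the wider list, 6 of 59 were higher (10.2%, beside 12.4% of all genes) and 12 lower (20.3%, beside 15.8%). The higher ones were led by Gsto1 (3.23), Rpe (1.31) and Pgls (1.27). The lower ones were led by Txnip (-2.86), Gstt1 (-2.66) and Selenop (-2.20).

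In fibre droplets the metallothioneins went the other way. Mt1 was 176 CPM in the 504 sham and 1185 CPM in the 51 MOV droplets (2.75, interval 2.53 to 2.96) and Mt2 40.7 and 353 CPM (3.12, interval 2.69 to 3.54). Without shared barcodes (32 MOV and 482 sham droplets) Mt1 was 1248 CPM in MOV and 173 CPM in sham, a log2 ratio of 2.85 (2.63 to 3.08), and that of Mt2 was 2.98. Nfe2l2 (1.55, interval 0.56 to 2.43), Txn1 (1.49, interval 1.11 to 1.84), Srxn1 (1.68, interval 0.73 to 2.54) and Prdx4 (3.51, interval 2.07 to 4.92) were also at least 2-fold higher, and Prdx3 was lower (-1.12, interval -1.80 to -0.51). With each cell weighted equally the ratio of Nfe2l2 was 0.46, and that of Srxn1 was below 2-fold with equal weights and with doubled or halved marker cuts, with a lowest value of 0.59. Prdx3 was below 2-fold with doubled or halved cuts. Without shared barcodes these 5 ratios were 1.61, 1.50, 1.77, 3.40 and -1.02. Without shared barcodes Prdx4 rested on 9 MOV and 10 sham UMIs, Nfe2l2 on 12 and 46 and Srxn1 on 14 and 48. Prdx4 held enough UMIs to be compared in only 10 of the 16 alternatives. Keap1 gave -0.32 (-1.48 to 0.64) and Gclm 0.63 (-0.47 to 1.58), and Gclc had no UMI in the MOV droplets, where 3 counts correspond to 13.4 CPM. Of 28 members compared, 6 were higher (21.4%, beside 15.7% of 5948 genes) and 1 lower (3.57%, beside 12%), with a median of 0.07 beside 0.14 over all genes.

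The MOV droplets held more transcripts of several other cell types than the sham droplets. The MuSC markers summed to 169.9 CPM in MOV and 34.9 CPM in sham droplets with 5 of 8 detected in each (Pax7, Calcr and Chrdl2 at 0 in MOV), the cell-cycle panel to 103 CPM (9 of 12 detected) and 2.88 CPM (3 of 12), the myeloid markers to 143 and 11.2 CPM, the erythroid markers to 13.4 and 361 CPM, and the heat shock genes to 12770.4 and 1715 CPM. The fibro-adipogenic check genes summed to 93.9 CPM (4 of 5 detected) and 2.24 CPM (2 of 5), and the tenocyte markers to 129.7 and 20.5 CPM. Pdgfra was at 0 in both, and the endothelial markers were at 0 in MOV. Myofibre markers were 24606 and 52242 CPM, and the median depth was 952 and 3744 UMIs. The metallothioneins, Nfe2l2, Txn1, Srxn1 and Prdx4 are at higher CPM in MOV MuSCs than in sham droplets. Within the MOV library, Mt1, Mt2, Nfe2l2, Txn1 and Prdx4 were lowest in the droplets among the 7 groups. Srxn1 was higher in the MOV droplets than in matrix, remaining and cycling MuSCs, and lower than in quiescent-marker MuSCs (90.8 CPM). The part of RNA from other cells in the ratios of these genes was not tested. Of the wider list, 2 of 38 were higher (5.26%, beside 15.7% of all genes) and 6 lower (15.8%, beside 12%). The higher ones were Blvrb (1.22) and Bach1 (1.18), the repressor that competes with NRF2. The lower ones were led by Txnrd2 (-2.20), Rpia (-1.46) and Chac2 (-1.34), each from 3 or fewer MOV UMIs.

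**Figure D5:**
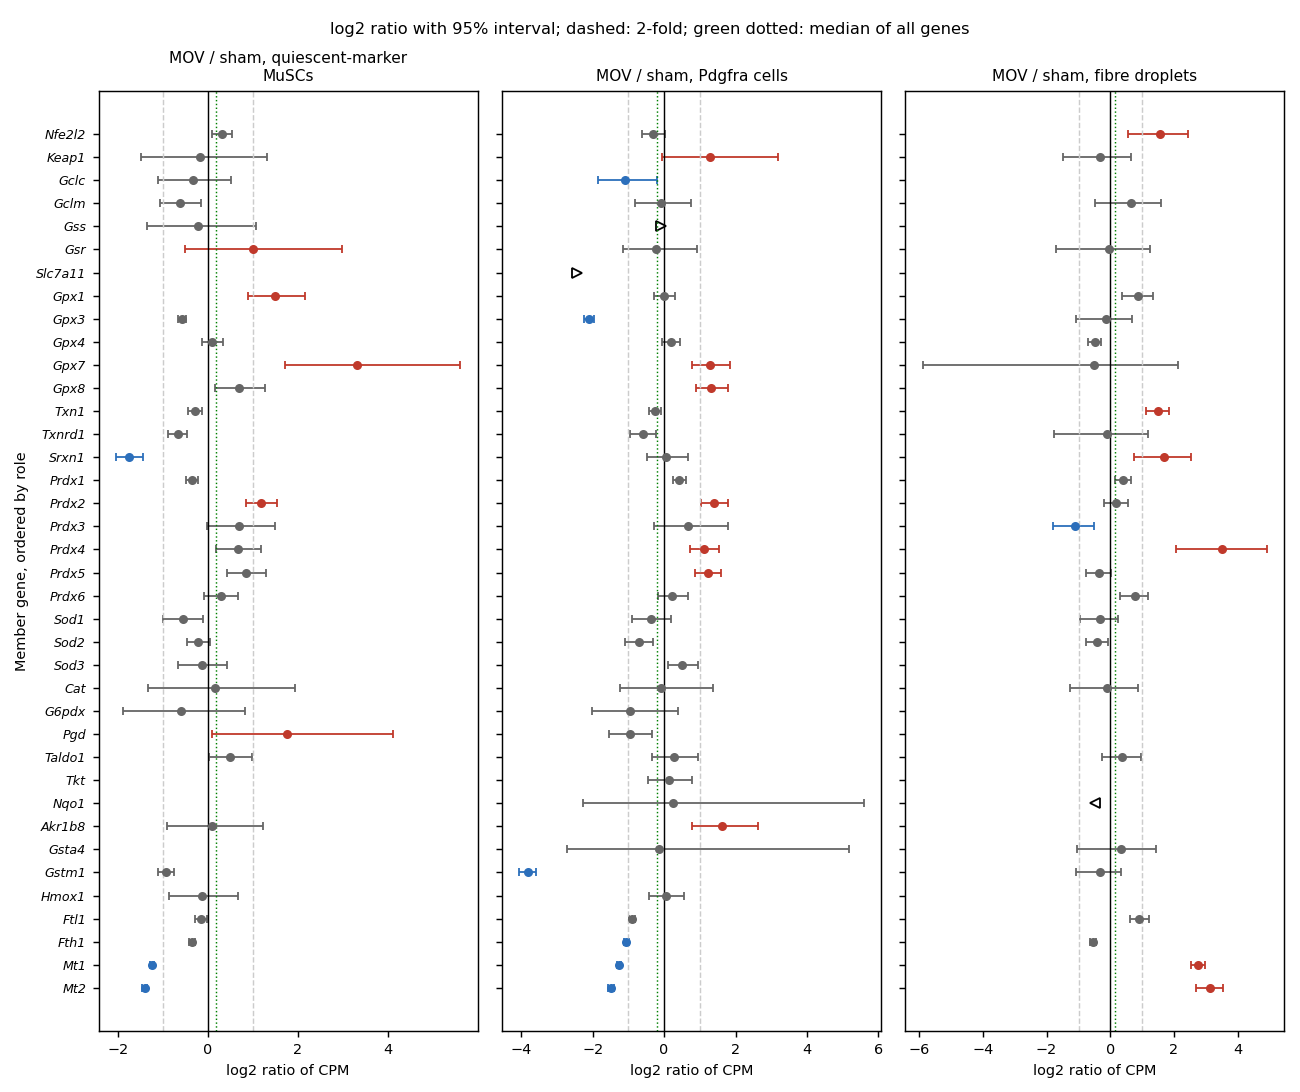
log2 ratio of CPM of MOV to sham for each member compared, with 95% counting intervals, in quiescent-marker MuSCs, Pdgfra cells and fibre droplets; colours and lines as in the plot of MuSC states, and an open triangle marks a group with no UMI, set at 3 counts and pointing to the side on which the ratio lies. Mt1 and Mt2 lie left of the 2-fold line in the left and middle panels and right of it in the right panel, and Nfe2l2, Gclm and Keap1 lie between the 2-fold lines in the left panel.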

How the data were processed

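Single-cell RNA-seq counts were deposited by the authors as 1 matrix of whole-number UMI counts per library, made with Cell Ranger 6.0.0 (the submitters' processing notes also list R 4.0.2 and Seurat 4.0.2) on mm10 and filtered for cells but not normalised. From these counts, cells were grouped here by marker sums in a fixed order. Cells over 10% mitochondrial UMIs were left out. Fibre droplets needed 10000 CPM and 10 UMIs of the myofibre panel, other types 500 CPM and 5 UMIs, Pdgfra cells 2 UMIs, Myog cells 3 UMIs and 300 CPM, MuSCs 3 UMIs and 100 CPM, cycling MuSCs 5 UMIs and 1000 CPM, quiescent-marker MuSCs 1000 CPM and matrix MuSCs 300 CPM. No doublet caller was run, and cells with markers of 2 groups (5 sham and 39 MOV) were left out. Among Pdgfra cells these had at least 3 UMIs and 300 CPM of MuSC markers or were past the Myog cut. Among MuSCs and Myog cells they had at least 1500 CPM of the fibro-adipogenic check genes. The cuts were set from marker sums alone, but the members and gene lists were chosen with earlier results of these data known. In each comparison up to 6 members past 2-fold in each direction are named, with Nfe2l2, Keap1, Gclc and Gclm always given and other members by their role, and from the wider list of 63 genes up to 3 past 2-fold in each direction.

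UMIs were summed per group, divided by the group's total, and given exact Poisson intervals. Log2 ratios have exact conditional (Clopper-Pearson) 95% intervals for counting error, and UMIs from 1 library are no replicates. A group with no UMI was set at 3 counts. The depth was 7302661 UMIs for sham and 88498487 for MOV, so sham groups limit the precision except for fibre droplets. These held 3123237 UMIs in sham and 223643 in MOV, so there the MOV group limits it. Detection rates were computed after random thinning of each cell to 2000 UMIs. In all, 16 alternatives were computed, of which 3 were chosen after seeing the data. Scripts were tested on simulated counts. Python 3.11.15 with numpy 2.4.6, scipy 1.17.1, pandas 2.3.3 and matplotlib 3.10.9, and R 4.3.3 with edgeR 4.0.16 and DESeq2 1.42.0 for scaling factors, were used. Gene positions are from GENCODE on GRCm38 and start regions from RefSeq on GRCm38.p6.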

Additional observations from a re-analysis of the deposited data

Results flagged for a closer look

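In 3 members the ratio of MOV to sham was past 2-fold in opposite directions in different groups of the same libraries. Such opposite directions were not counted over all genes, so this count has no background beside it. Mt1 had a log2 ratio of -1.24 in quiescent-marker MuSCs and -1.25 in Pdgfra cells but 2.75 in fibre droplets. Mt2 had -1.41 in quiescent-marker MuSCs and -1.50 in Pdgfra cells but 3.12 in fibre droplets. Srxn1 had -1.74 in quiescent-marker MuSCs and 1.68 in fibre droplets. The droplet value of Srxn1 was below 2-fold with equal cell weights and with doubled or halved marker cuts, down to 0.59. With 1 library per condition the difference between the groups was not tested. The MOV fibre droplets were 51 barcodes, of which 19 also occurred in the sham library, and without shared barcodes the ratios there were 2.85 for Mt1, 2.98 for Mt2 and 1.77 for Srxn1. Their heat shock genes summed to 12770 CPM, beside 1715 CPM in the sham droplets.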

How the results depend on the processing

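No paired analysis was possible because each condition had 1 library, and for the same reason no replicate could be left out. Of the 16 alternatives, leaving out shared barcodes, ratios relative to the median of all genes, and leaving out Myog and Pdgfra cells past the cycling cut were chosen after seeing the data. The counts of members past 2-fold stayed within 1.5 times except as follows, and the cause was not tested. Against quiescent-marker MuSCs, 3 members were higher in matrix MuSCs but 5 with each cell weighted equally and 6 with doubled marker cuts, and 8 were lower but 5 with halved cuts. For Myog against cycling cells, 0 were higher but 2 without the Myog cells past the cycling cut, 2 with cells thinned to 2000 UMIs, 1 with doubled cuts and 2 relative to the median. There 2 were lower but 5 with equal weights, 1 with halved cuts, 1 with a minimum of 100 UMIs and 4 without cells above the 95th percentile of UMIs. In sham fibre droplets against quiescent-marker MuSCs, 10 were higher but 16 with DESeq2 and 16 with TMM factors. For MOV against sham, 5 were higher in quiescent-marker MuSCs but 3 when thinned, 3 with doubled cuts and 2 with a minimum of 100 UMIs, and 3 were lower but 5 with no minimum. In fibre droplets 6 were higher but 11 with halved cuts, 3 with a minimum of 100 UMIs and 11 with no minimum, and 1 was lower but 2 when thinned, 5 with equal weights and 3 with halved cuts. The direction reversed for Keap1 in Pdgfra cells, which for MOV against sham had a log2 ratio of 1.30, and of -1.08 when thinned. TMM and DESeq2 factors moved the median of all genes for MOV against sham fibre droplets from 0.14 to -0.26 and -0.28. Outside the fibre droplets, depth limits the sham groups most, since members such as Keap1, Gpx7, Pgd and Gclc rested on few UMIs there. In fibre droplets the MOV group was the shallower one. A difference between the libraries cannot be told apart from one between the animals, the surgeries' handling or the preparation.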
